A study of Homo sapiens with 11 samples.

Results

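The mitochondrial ribosomal protein genes analysed here are the protein-coding genes whose symbol is MRPL or MRPS followed by a number and, in some, a final letter. The rule found 78 genes, 49 MRPL and 29 MRPS, among 60612 genes in the deposited gene table. A further 86 rows with such symbols, pseudogenes and other rows that are not protein coding, were left out. All 78 members passed the filter on low values described below, and they lie on 21 chromosomes.

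The RNA was from 2 established colorectal cancer lines of human origin, HCT-116 and RKO, and was sequenced to compare cells given phenylacetaldehyde (PAA), an aromatic aldehyde, with vehicle. HCT-116 cells were given PAA for 24 h (n = 3 libraries) or the vehicle dimethyl sulfoxide (DMSO) at 0.1% in the medium (n = 3). RKO cells were given PAA for 24 h (n = 3) or the same vehicle (n = 2, numbered 2 and 3 in the labels). The dose of PAA is not given in the sources used here, and no culture, day or batch is named for any library, so a p-value here is set by the scatter of these libraries, which may be only technical. Both lines are single established lines, so each stands for 1 tumour.

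The mitochondrial ribosome makes the few proteins encoded by mitochondrial DNA, all of them subunits of the respiratory chain and ATP synthase. Its 2 ribosomal RNAs are mitochondrial transcripts, whereas all of its proteins are encoded in the nucleus, made in the cytosol and imported. MRPL genes encode proteins of the large subunit, which joins amino acids, and MRPS genes encode proteins of the small subunit, which reads the messenger RNA. Some of these proteins have bacterial counterparts and others are found in mitochondrial ribosomes alone. By textbook knowledge 3 names do not match the place of the protein. MRPS30 and MRPS18A sit in the large subunit, and MRPS36 belongs to the 2-oxoglutarate dehydrogenase complex.

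Values are FPKM (fragments per kilobase of transcript, scaled to the fragments of the library) as deposited, and differences are on the log2(FPKM + 1) scale, which understates changes of genes with low FPKM, with the standard error (SE) of limma's fit. A gene is called higher or lower when the adjusted p of limma's moderated test, over the 13881 genes that reach an FPKM of 1 in 2 or more libraries, is under 0.05. Adjusted p-values are two-sided and by Benjamini-Hochberg. Total FPKM per library ranged from 264474 to 332021, and 11634 to 12133 genes reached an FPKM of 1. Mitochondrially encoded genes held 38.2% to 40.2% of the total in HCT-116 with DMSO, 31.2% to 31.4% in HCT-116 with PAA, 33.8% to 34.9% in RKO with DMSO and 18.2% to 18.5% in RKO with PAA. With every library scaled to 1 common total, the median change of all tested genes with PAA went from 0.059 to 0.277 in RKO and from -0.007 to 0.068 in HCT-116. Results were therefore checked under 5 scalings, which were the values as deposited, a common total, a common total of nuclear genes, median-of-ratios factors and quantile normalization. The part of the mitochondrial share in the results was not tested beyond these scalings. Of the epithelial and intestinal markers, group mean FPKM in HCT-116 and RKO with DMSO was 93.1 and 5.34 for EPCAM, 7.49 and 0.086 for CDH1, 96.6 and 20.4 for KRT18 and 4.63 and 4.09 for CDX2. KRT8 was at 3.28 in RKO with DMSO and far higher in HCT-116, and VIL1 was at most 0.0154 in every group. Of the markers of other cell types, PTPRC and CD3E were listed at 0 in every group. CD68, known from macrophages, was at 2.36 and 7.44 in HCT-116 with DMSO and PAA and at 204 and 246 in RKO. COL1A1 was at most 2.39, and LYZ, HBB, HBA1, COL1A2, PDGFRB, PECAM1 and VWF were at most 0.441. The part of these markers in the results was not tested. In bulk RNA of this kind, fewer cells of a type and less RNA per cell cannot be told apart.

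In both lines the members moved little with PAA, and most did not pass the test. In HCT-116, 10 members were called higher, 18 lower and 50 neither. That is 35.9% called, against 47.1% of all tested genes, of which 21.7% were higher and 25.3% lower. In RKO, 10 members were called higher, 21 lower and 47 neither. That is 39.7% called, against 40% of all tested genes, of which 25.7% were higher and 14.3% lower. The median member changed by -0.071 in HCT-116, where the median of all tested genes was -0.007, and by -0.096 in RKO, where it was 0.059. Under a common total the medians of the members became 0.028 and 0.166, so their sign depends on scaling. Set against the median of all tested genes, the members stayed lower under all 5 scalings, by 0.04 to 0.072 in HCT-116 and by 0.111 to 0.18 in RKO. Scaling by 1 factor per library moves members and all genes almost alike, so such scalings are a weak check of this gap. A called change of at least 0.5 in either direction was reached by 2 members in HCT-116 and 4 in RKO, against 15.9% and 13.3% of all tested genes. Directions and calls are those of the deposited scale unless another is named. The calls that stood under all 5 scalings were 8 higher and 6 lower in HCT-116, and 7 higher and 4 lower in RKO. The matching share of all tested genes was not taken, so these counts cannot be called few or many.

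**Figure D1:**
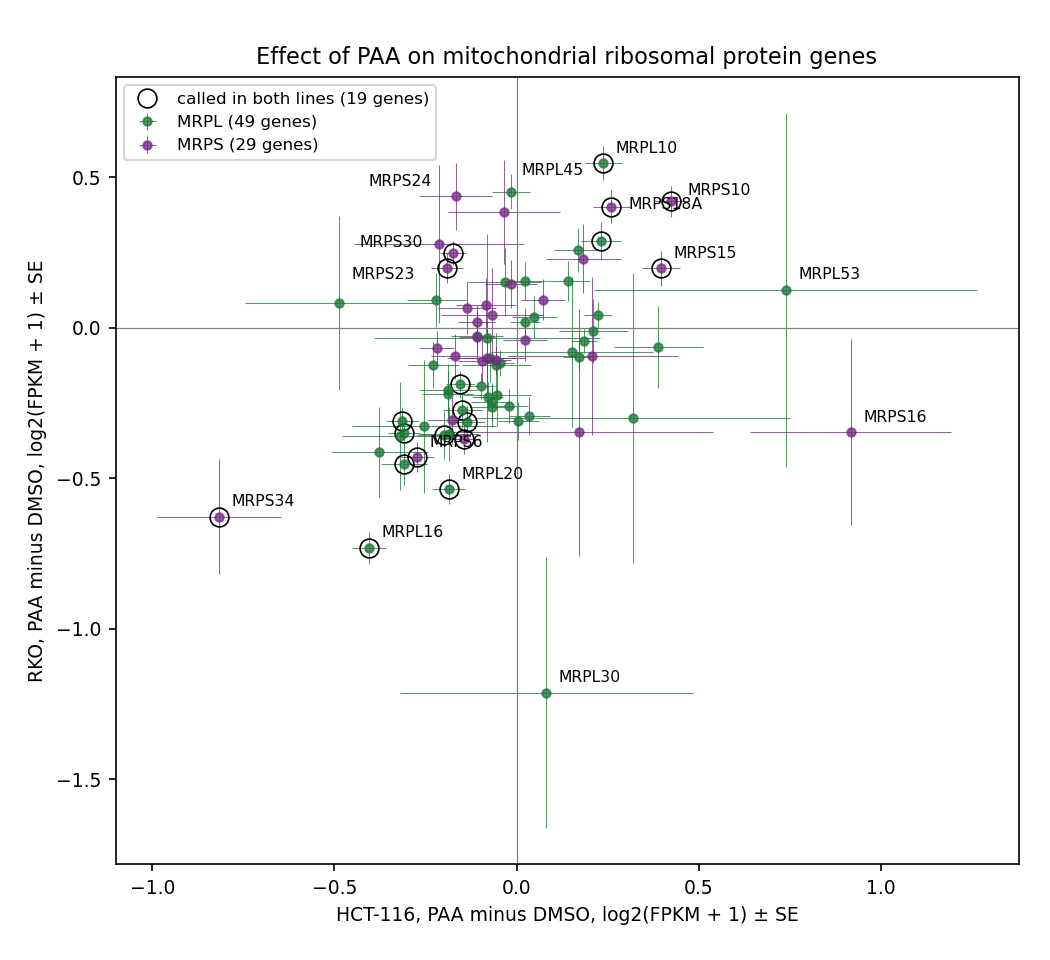
Change with PAA of each member in HCT-116 (horizontal axis) and RKO (vertical axis) as the difference of mean log2(FPKM + 1), with bars of 1 SE; green is MRPL, purple is MRPS, and the 19 rings mark members called in both lines. Most points lie within 0.5 of 0 on both axes, 5 ringed genes lie at the upper right, 12 at the lower left and 2 at the upper left.

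The change in each line was taken from its own libraries, but the spread of each gene was estimated from all 11 libraries. Calls in the 2 lines are therefore not independent. Of the 78 members, 5 were called higher in both lines (6.4%, against 12.4% of all tested genes) and 12 lower in both (15.4%, against 8.72%). A further 2 members, MRPS23 and MRPS30, were called in opposite directions, against 3.99% of all tested genes. The members higher in both were MRPL9, MRPL10, MRPS10, MRPS15 and MRPS18A. Those lower in both were MRPL12, MRPL13, MRPL14, MRPL16, MRPL17, MRPL20, MRPL36, MRPL41, MRPL44, MRPS6, MRPS26 and MRPS34. In HCT-116 alone 9 members were called and in RKO alone 12, and 38 were called in neither.

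The change with PAA in RKO had a lower median among MRPL than among MRPS genes. In RKO with PAA, 4 MRPL genes were called higher and 17 lower of 49, with a median change of -0.188. Of the 29 MRPS genes there, 6 were called higher and 4 lower, with a median of 0.021. In HCT-116, 6 MRPL genes were called higher and 12 lower (median -0.067), and 4 MRPS genes were called higher and 6 lower (median -0.083). All tested genes gave 25.7% higher and 14.3% lower in RKO, and 21.7% and 25.3% in HCT-116. Against the median of all tested genes in RKO, the MRPL median was lower by 0.179 to 0.287 over the 5 scalings, and the MRPS median lay between -0.07 and 0.004. For these gaps too, scalings by 1 factor per library are a weak check. As levels, the mean log2(FPKM + 1) of the MRPL genes exceeded that of the MRPS genes by 0.286 and 0.289 in RKO with DMSO and by 0.116, 0.173 and 0.109 in RKO with PAA. The RKO groups did not overlap. In HCT-116 the same excess was 0.188, 0.215 and 0.26 with DMSO and 0.187, 0.256 and 0.165 with PAA, and the groups overlapped. The excess fell by 0.155 in RKO and by 0.018 in HCT-116 on that scale. With the 14 members of widest replicate spread left out, a choice made after seeing the data, it fell by 0.167 and 0.013. By place in the particle, with MRPS30 and MRPS18A counted in the large subunit and MRPS36 in neither, the RKO medians lay closer, at -0.123 for the large subunit (6 higher and 17 lower of 51) and -0.035 for the small (4 and 4 of 26). In HCT-116 those medians were -0.067 and -0.083. No test was made of a score over members chosen with earlier results known.

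**Figure D2:**
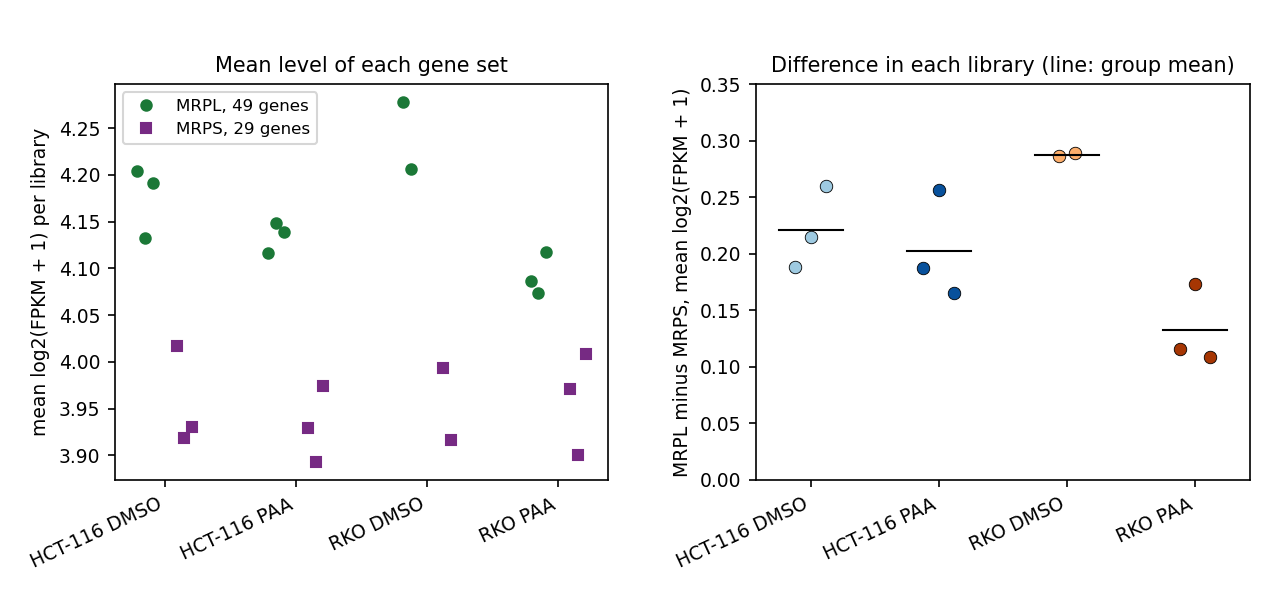
Left, mean log2(FPKM + 1) over the 49 MRPL genes (circles) and the 29 MRPS genes (squares) in each of the 11 libraries; right, their difference per library, with a line at each group mean. The RKO libraries lie at 0.286 and 0.289 with DMSO and between 0.109 and 0.173 with PAA, while the HCT-116 groups overlap.

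The members were also grouped by place and descent, with no test between groups. Of all tested genes, 25.3% were called lower in HCT-116 and 14.3% in RKO. Of the 30 large subunit proteins with bacterial counterparts, the test called 4 higher and 10 lower in HCT-116, and in RKO 3 and 11, with medians of -0.107 and -0.218. Of the 21 large subunit proteins found in mitochondrial ribosomes alone, the counts were 3 and 3 in HCT-116 and 3 and 6 in RKO, with medians of -0.046 and -0.116. Of the 15 small subunit proteins with bacterial counterparts, the counts were 3 and 2 in HCT-116 and 3 and 1 in RKO, with medians of -0.034 and 0.021. Of the 11 small subunit proteins without them, 3 were lower in HCT-116, and in RKO 1 was higher and 3 were lower, with medians of -0.109 and -0.041. Under a common total the RKO counts for all members became 30 higher and 4 lower, where the median of all tested genes was 0.277. They were 9 and 23 with a common nuclear total and 7 and 31 with median-of-ratios factors. With quantile normalization they were 8 and 24, so only the common total took most falls in RKO away.

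MRPS10, a small subunit protein, rose by a similar amount in both lines. Its FPKM was 29.02, 29.95 and 27.2 in HCT-116 with DMSO and 40.1, 37.3 and 39.4 with PAA. Its RKO values were 21.6 and 22.5 with DMSO and 30.03, 28.9 and 30.6 with PAA. Every PAA library lay above every DMSO library of its line. The change was 0.43 ± 0.045 SE (adjusted p = 6.16e-05) in HCT-116 and 0.42 ± 0.050 SE (adjusted p = 0.000202) in RKO by limma's test, and the call stood under all 5 scalings in both lines and without any 1 library. The gene lies on GRCh38 chromosome 6, 42206801 to 42217865, on the minus strand.

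MRPL10 carries the stalk of the large subunit, where translation factors bind. It was at 27.4, 25.3 and 26.97 FPKM in HCT-116 with DMSO and 32.8, 31.5 and 30.2 with PAA. Its RKO libraries were at 19.3 and 18.6 with DMSO and 26.4, 29.03 and 28.95 with PAA. The groups did not overlap in either line, and the change was 0.24 ± 0.051 SE (adjusted p = 0.00403) in HCT-116 and 0.55 ± 0.057 SE (adjusted p = 9.02e-05) in RKO. The rise was larger in RKO by 0.31 ± 0.076 SE (adjusted p = 0.0144), a difference not called under every scaling. Without RKO DMSO replicate 3 that difference was 0.28 with an adjusted p of 0.0592. MRPL12, the stalk protein that MRPL10 holds, went the other way. It was at 156, 159 and 168 FPKM in HCT-116 with DMSO and 130.04, 132 and 125 with PAA. In RKO it was at 69.6 and 73.7 with DMSO and 58.7, 59.1 and 54.9 with PAA. Its PAA libraries all lay below the DMSO libraries, with changes of -0.31 ± 0.043 SE (adjusted p = 0.00033) in HCT-116 and -0.31 ± 0.049 SE (adjusted p = 0.000954) in RKO. The RKO value was -0.03 under a common total.

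MRPS18A, 1 of 3 paralogs of the bacterial S18 protein and the one in the large subunit, rose in both lines. Its FPKM went from 26.4, 25.1 and 27.2 to 30.5, 32.2 and 32.05 in HCT-116 and from 20.7 and 21.7 to 28.5, 26.6 and 29.9 in RKO. The groups did not overlap, and the change was 0.26 ± 0.050 SE (adjusted p = 0.00221) and 0.40 ± 0.056 SE (adjusted p = 0.000468), under all 5 scalings. The small subunit paralogs gave 0.02 ± 0.061 SE in HCT-116 and -0.04 ± 0.068 SE in RKO for MRPS18B, and 0.18 ± 0.10 SE and 0.23 ± 0.11 SE for MRPS18C, none of them called. MRPS18B was called higher in RKO under a common total, at 0.24. Exons of MRPS18A overlap those of RSPH9 on the other strand, and the use of strand in counting is not given in the sources used here, so its values may hold reads of RSPH9.

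MRPL9 and MRPS15 completed the members higher in both lines. MRPL9, a large subunit protein, went from 19.9, 19.5 and 19.7 to 22.8, 23.9 and 23.3 FPKM in HCT-116 and from 27.1 and 24.02 to 32.1, 29.2 and 33.04 in RKO. The changes were 0.23 ± 0.055 SE (adjusted p = 0.00719) and 0.29 ± 0.062 SE (adjusted p = 0.00513), both with groups apart. The sum of transcript values gave 0.21 in RKO with an adjusted p of 0.123, and leaving out RKO DMSO replicate 3 gave 0.21 with 0.0505. MRPS15 went from 19.8, 18.6 and 18.7 to 23.4, 26.3 and 26.6 in HCT-116 and from 23.2 and 21.6 to 25.9, 25.7 and 25.8 in RKO. Its changes were 0.40 ± 0.052 SE (adjusted p = 0.000244) and 0.20 ± 0.058 SE (adjusted p = 0.0242). The RKO call was not made under every scaling, and it was lost when RKO DMSO replicate 3 (0.15, adjusted p = 0.17) or any 1 of the RKO PAA libraries was left out, with values of 0.19 to 0.20. MRPL9 overlaps OAZ3 on the other strand.

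Among the members that fell in both lines, MRPS34 had the largest drop in HCT-116 and MRPL16 the largest in RKO. MRPS34 is a small subunit protein specific to mitochondria, and its loss causes a form of Leigh syndrome. Its FPKM was 57.5, 60.7 and 60.7 in HCT-116 with DMSO and 33.8, 32.6 and 33.8 with PAA. The HCT-116 groups stood far apart, and the change was -0.82 ± 0.17 SE (adjusted p = 0.00375), under all 5 scalings and without any 1 library. In RKO the values were 87.6 and 61.2 with DMSO and 62.7, 40.5 and 41.03 with PAA. There the groups overlapped, with a change of -0.63 ± 0.19 SE (adjusted p = 0.0281). The RKO call was lost without RKO DMSO replicate 2 (-0.37, adjusted p = 0.23), without RKO PAA replicate 2 (-0.52, 0.0813), without RKO PAA replicate 3 (-0.53, 0.0812), and it did not stand under every scaling.

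MRPL16 lies near the site where the large subunit holds transfer RNA. Its FPKM was 26.9, 25.7 and 26.5 in HCT-116 with DMSO and 18.6, 20.8 and 19.6 with PAA. In RKO it was 42.5 and 39.4 with DMSO and 23.6, 24.8 and 24.4 with PAA. All PAA libraries were below the DMSO libraries in both lines. The change was -0.41 ± 0.048 SE (adjusted p = 0.000118) in HCT-116 and -0.73 ± 0.053 SE (adjusted p = 1.21e-05) in RKO, under all 5 scalings and without any 1 library. The RKO change minus the HCT-116 change was -0.32 ± 0.071 SE (adjusted p = 0.00829), a difference that was -0.16 and not called under a common total.

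MRPL36, a small zinc-binding protein of the large subunit, and MRPS6, of the small subunit, also fell in both lines under all 5 scalings and without any 1 library. MRPL36 went from 21.1, 21.7 and 19.8 to 15.8, 17.2 and 16.9 FPKM in HCT-116 and from 23.9 and 24.8 to 15.9, 18.1 and 18.7 in RKO. The changes were -0.31 ± 0.062 SE (adjusted p = 0.00305) and -0.45 ± 0.070 SE (adjusted p = 0.000901). MRPS6 went from 5.82, 5.88 and 5.40 to 4.47, 4.79 and 4.38 in HCT-116 and from 9.38 and 9.80 to 6.97, 6.87 and 6.73 in RKO. The changes were -0.27 ± 0.044 SE (adjusted p = 0.00089) and -0.43 ± 0.050 SE (adjusted p = 0.000166). For both genes no PAA library reached the lowest DMSO library of its line. MRPS6 shares exons with SLC5A3 on the same strand, so reads of that gene could be counted with it.

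MRPL20, needed early in the assembly of the bacterial large subunit, fell further in RKO. It went from 19.04, 18.3 and 17.7 to 15.1, 16.3 and 16.7 FPKM in HCT-116 and from 19.9 and 19.8 to 13.7, 12.9 and 13.6 in RKO. The changes were -0.19 ± 0.045 SE (adjusted p = 0.00825) and -0.54 ± 0.051 SE (adjusted p = 5.33e-05), and the RKO call stood under all 5 scalings. In HCT-116 the sum of its transcripts gave -0.05 with an adjusted p of 0.67. MRPL14, at the face between the subunits, went from 53.6, 49.8 and 54.7 to 44.4, 41.5 and 41.1 in HCT-116 and from 59.2 and 61.001 to 46.5, 46.6 and 47.9 in RKO. Its changes were -0.31 ± 0.043 SE (adjusted p = 0.000359) and -0.35 ± 0.048 SE (adjusted p = 0.000481), and the RKO value was -0.07 under a common total. MRPS26 changed by -0.14 ± 0.044 SE in HCT-116 and -0.37 ± 0.049 SE (adjusted p = 0.000374) in RKO, where it went from 81.8 and 87.5 to 65.7, 62.6 and 67.6 FPKM. The HCT-116 call of MRPS26 was lost without DMSO replicate 1 (-0.13) or PAA replicate 1 (-0.11), and neither call of MRPS26 stood under every scaling.

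The other members lower in both lines were MRPL13, MRPL17, MRPL44 and MRPL41. MRPL13, MRPL17 and MRPL44, which resembles a ribonuclease, changed by -0.14, -0.20 and -0.15 in HCT-116, with adjusted p of 0.0443, 0.0486 and 0.0479. Each of these HCT-116 calls was lost when any 1 of 8 or 9 of the libraries was left out, with values of -0.14 to -0.11 for MRPL13, -0.23 to -0.17 for MRPL17 and -0.17 to -0.11 for MRPL44. Those of MRPL13 and MRPL44 were also lost by the sum of transcripts. In RKO, MRPL13, MRPL17 and MRPL44 changed by -0.31, -0.36 and -0.27. The calls of MRPL17 and MRPL44 there were lost without RKO DMSO replicate 2, at -0.33 and -0.21. No call of MRPL13, MRPL17 or MRPL44 in either line stood under every scaling. MRPL41, the member with the highest mean FPKM over the 11 libraries, changed by -0.15 ± 0.040 SE (adjusted p = 0.0113) in HCT-116 and -0.19 ± 0.045 SE (adjusted p = 0.00897) in RKO, but by 0.10 in RKO under a common total. Its RKO call was lost without DMSO replicate 3, at -0.17.

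**Figure D3:**
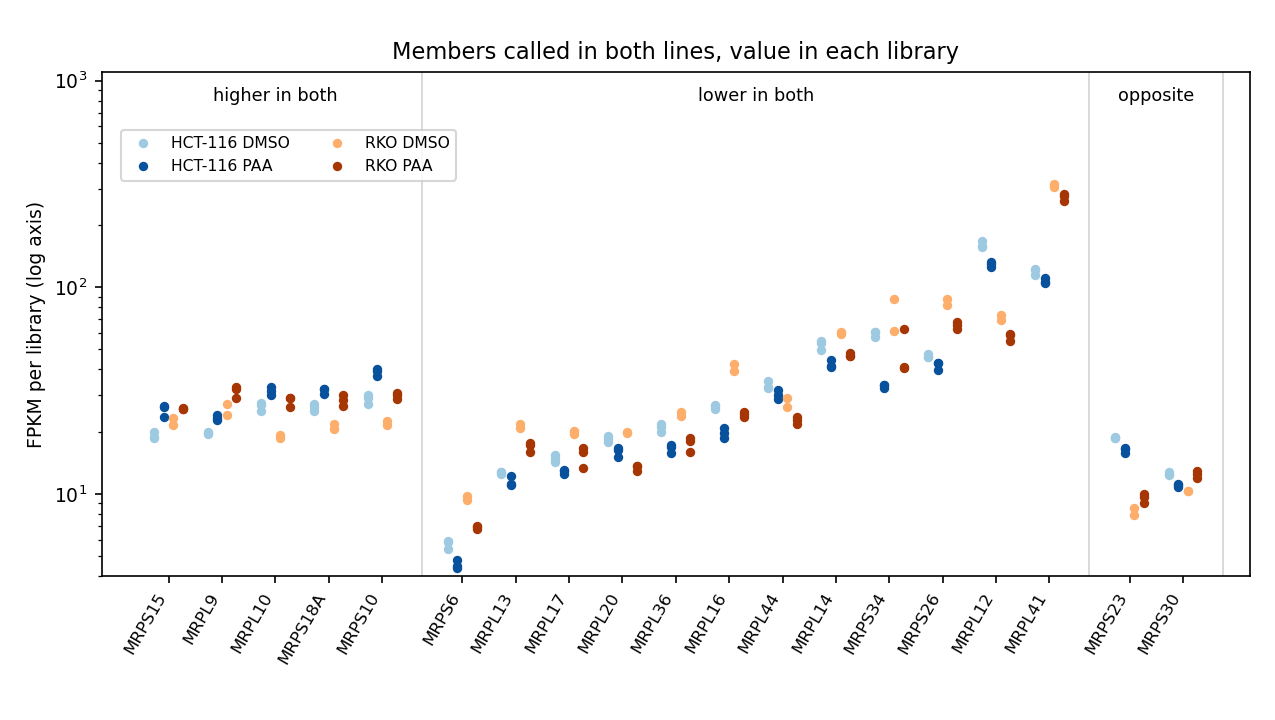
FPKM on a log axis in each library of the 19 members called in both lines, coloured by line and treatment and grouped by direction of the change with PAA. PAA libraries lie above DMSO libraries for the 5 genes on the left and below them for most of the 12 in the middle, where the RKO groups of MRPS34 overlap; MRPS23 and MRPS30 on the right change in opposite directions between the lines.

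The start regions of members called in both lines are printed next, since these genes moved together or apart. They were chosen after the matches were seen, 6 with a match to a motif described next and 2, MRPS15 and MRPL12, with none in this window. Each runs from 100 bases before to 30 bases from the annotated start, 5′ to 3′ on the gene's strand, from RefSeq on GRCh38.p14. Capitals mark a match, on either strand, to CCGGAAG (bound by ETS factors, among them GABP) or ATGGCGG (bound by YY1). MRPS10, MRPS18A, MRPL9 and MRPS15 were higher in both lines, MRPS34, MRPL16 and MRPL12 lower in both, and MRPS30 lower in HCT-116 and higher in RKO. Among those not printed, MRPL36, lower in both, had an ATGGCGG match, and MRPS23, called in opposite directions, a CCGGAAG match.
MRPS10: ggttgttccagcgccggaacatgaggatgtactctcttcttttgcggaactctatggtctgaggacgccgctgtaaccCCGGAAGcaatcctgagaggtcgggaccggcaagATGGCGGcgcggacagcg
MRPS18A: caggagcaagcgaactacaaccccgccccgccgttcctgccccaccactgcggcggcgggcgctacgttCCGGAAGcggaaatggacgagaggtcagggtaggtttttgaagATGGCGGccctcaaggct
MRPL9: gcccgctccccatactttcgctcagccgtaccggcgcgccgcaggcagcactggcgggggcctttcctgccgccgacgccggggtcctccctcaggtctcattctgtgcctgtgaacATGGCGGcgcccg
MRPS15: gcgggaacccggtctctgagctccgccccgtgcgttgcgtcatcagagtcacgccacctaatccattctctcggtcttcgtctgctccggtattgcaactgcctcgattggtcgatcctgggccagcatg
MRPS34: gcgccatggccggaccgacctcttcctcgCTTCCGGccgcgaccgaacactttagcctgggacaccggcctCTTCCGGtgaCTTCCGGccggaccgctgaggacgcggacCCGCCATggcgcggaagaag
MRPL16: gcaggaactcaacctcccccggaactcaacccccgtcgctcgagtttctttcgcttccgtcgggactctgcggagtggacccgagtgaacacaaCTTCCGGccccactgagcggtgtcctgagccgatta
MRPL12: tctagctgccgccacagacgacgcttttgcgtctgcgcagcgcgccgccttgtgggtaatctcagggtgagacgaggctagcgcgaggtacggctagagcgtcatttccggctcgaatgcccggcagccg
MRPS30: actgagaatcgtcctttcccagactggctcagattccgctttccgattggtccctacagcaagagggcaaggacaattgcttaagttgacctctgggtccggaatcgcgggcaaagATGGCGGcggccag
Those regions are chr6:42217832-42217961, chr6:43687762-43687891, chr1:151763467-151763596, chr1:36464355-36464484, chr16:1773105-1773234 and chr11:59810749-59810878 on the minus strand, and chr17:81703267-81703396 and chr5:44808847-44808976 on the plus strand. In MRPS10 and MRPS18A the ETS match begins 22 and 31 bases before the start, and in MRPS34 there are 3 such matches within 71 bases before it. The ATGGCGG match begins 10 to 17 bases after the start in MRPS10, MRPS18A, MRPL9, MRPS34 and MRPS30, and 27 bases after it in MRPS15, where it runs past the printed window.

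RefSeq promoters, from 250 bases before to 50 after the start, were matched for 69 of the 78 members and for 9277 tested protein-coding genes. The ETS motif was found in 29 of the 69 (42.0%), against 20.7% of all these promoters. The YY1 motif was found in 24 (34.8%), against 1023 of the 9277. The motif of NRF1 (GCGC, any base, then TGCGC), a regulator of nuclear genes for mitochondria, was found in 8 (11.6%), against 12.3%. For the others the shares were 60.9% against 72.4% for the GC box GGGCGG, 8.7% against 10.4% for the E box CACGTG, 1.4% against 1.6% for TGATGNAA of ATF4 and 33.3% against 35.6% for TGACG. All motifs were searched on both strands, and their matches may overlap. The median GC content was 60.3% in the members' promoters and 65.7% in all. By set, the ETS motif was found in 17 of 42 MRPL and 12 of 27 MRPS promoters, and the YY1 motif in 14 and 10. The YY1 motif was present in 4 of 4 matched promoters of members higher in both lines and in 2 of 11 of those lower in both, a count made after those groups were known. In those 4 the match begins with ATG on the gene's own strand, 12 to 27 bases after the start, so it lies in transcribed sequence. Whether it belongs to a start codon was not tested. A match is a run of letters and not a measured binding site.

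Many members start close to another gene that runs the other way. A protein-coding neighbour on the opposite strand started within 1000 bp of 17 members (21.8%), against 10.2% of 11470 tested protein-coding genes. MRPL46 and MRPS11 share such a start, 34 bp apart, and gave -0.07 ± 0.073 SE and 0.07 ± 0.060 SE in HCT-116 and -0.10 ± 0.081 SE and 0.09 ± 0.067 SE in RKO, none called. MRPL36 starts 34 bp from NDUFS6 and MRPL47 36 bp from NDUFB5, both of them subunits of respiratory complex I. MRPS34 starts 52 bp from EME2. Exons of 34 members overlap those of another protein-coding gene, so their values may hold its reads.

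MRPS23 and MRPS30 fell in HCT-116 and rose in RKO, though the HCT-116 falls of both and the RKO rise of MRPS23 did not stand under every scaling. MRPS30 was at 12.3, 12.5 and 12.7 FPKM in HCT-116 with DMSO and 11.1, 10.8 and 11.1 with PAA. In RKO it was at 10.3 and 10.3 with DMSO and 12.95, 11.9 and 12.5 with PAA. The groups were apart in both lines, with changes of -0.17 ± 0.036 SE (adjusted p = 0.00331) and 0.25 ± 0.040 SE (adjusted p = 0.00109). The difference between the lines was 0.42 ± 0.054 SE (adjusted p = 0.000465), called under all 5 scalings and without any 1 library. The sum of transcripts gave -0.10 in HCT-116, with an adjusted p of 0.11. MRPS23 went from 18.5, 18.8 and 18.7 to 16.4, 16.6 and 15.7 in HCT-116 and from 8.54 and 7.93 to 9.69, 9.06 and 10.03 in RKO. Its changes were -0.19 ± 0.044 SE (adjusted p = 0.00628) and 0.20 ± 0.049 SE (adjusted p = 0.0112), and the difference was 0.39 ± 0.066 SE (adjusted p = 0.00231), again under all 5 scalings. The RKO call of MRPS23 was lost without DMSO replicate 3 (0.15). By the sum of transcripts MRPS23 was called in neither line, with 0.22 and an adjusted p of 0.141 in RKO.

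The effect of PAA differed between the lines for 15 members (19.2%, against 31% of all tested genes), more positive in RKO for 5 and more negative for 10, against 21.3% and 9.68%. Under a common total the counts were 10 and 0, where the median difference of all tested genes was 0.211. They were 6 and 6 with a common nuclear total, 4 and 17 with median-of-ratios factors and 5 and 14 with quantile normalization. So the balance of this count rests on scaling, and only the common total gave more positive than negative differences. MRPL45, which anchors the ribosome at the inner membrane near the exit tunnel, was at 43.03, 50.1 and 48.1 FPKM in HCT-116 with DMSO and 46.9, 47.3 and 45.3 with PAA. In RKO it was at 31.6 and 31.7 with DMSO and 43.7, 42.99 and 44.3 with PAA. The HCT-116 groups overlapped (-0.02 ± 0.051 SE) and the RKO groups did not (0.45 ± 0.057 SE, adjusted p = 0.000285). The difference between the lines was 0.47 ± 0.077 SE (adjusted p = 0.00193), under all 5 scalings and without any 1 library. MRPS24 went from 15.2 and 19.1 to 23.2, 22.6 and 24.5 in RKO, a change of 0.44 ± 0.11 SE (adjusted p = 0.0124), and from 12.2, 12.9 and 11.6 to 11.98, 9.31 and 11.2 in HCT-116 (-0.17 ± 0.10 SE). Without RKO DMSO replicate 2 the RKO change was 0.28 (adjusted p = 0.117) and the difference between the lines 0.45 (0.06), against 0.60 ± 0.15 SE (adjusted p = 0.0144) with all libraries. MRPS24 shares exons with the read-through gene URGCP-MRPS24.

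Other members were called in 1 line and not in the other. In HCT-116 these included MRPL52 (0.22 ± 0.038 SE, adjusted p = 0.00114) and MRPL24 (0.19 ± 0.037 SE, adjusted p = 0.00278), both higher, and MRPL11 (-0.23 ± 0.070 SE, adjusted p = 0.0238) and MRPL23 (-0.38 ± 0.13 SE, adjusted p = 0.0443), both lower. The call of MRPL11 was lost without DMSO replicate 1 or 3 or PAA replicate 1 or 2, with values of -0.24 to -0.20, and that of MRPL23 without any 1 of 6 libraries, at -0.42 to -0.29. Neither stood under every scaling, and that of MRPL11 was also lost by the sum of transcripts. In RKO, MRPL2, of the peptidyl transferase region, changed by 0.26 ± 0.073 SE (adjusted p = 0.0203), a call lost without either DMSO library (0.23 and 0.29) or PAA replicate 2 (0.22) and by the sum of transcripts (0.07). MRPL27 changed by -0.35 ± 0.091 SE (adjusted p = 0.0132) and by -0.22 (adjusted p = 0.122) without RKO DMSO replicate 2. MRPL58, a peptidyl-tRNA hydrolase that became part of the large subunit, changed by 0.39 ± 0.12 SE (adjusted p = 0.0269) in HCT-116, with overlapping groups, a call lost without DMSO replicate 1 (0.29) or 3 (0.36) or PAA replicate 2 (0.33) or 3 (0.37). These calls of MRPL2, MRPL27 and MRPL58 did not stand under every scaling. MRPS36 was called in neither line (-0.14 ± 0.079 SE and 0.07 ± 0.088 SE).

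The remaining calls were small. In HCT-116, MRPL55 (0.17 ± 0.043 SE, adjusted p = 0.00971) was higher, and MRPL34 (-0.22 ± 0.080 SE, adjusted p = 0.0489) and MRPS12, of the decoding centre (-0.22 ± 0.049 SE, adjusted p = 0.0053), were lower. The call of MRPL34 was lost without any 1 of the 6 HCT-116 libraries or RKO PAA replicate 2, at -0.25 to -0.20. It was also lost by the sum of transcripts. None of the HCT-116 calls of MRPL55, MRPL34 and MRPS12 stood under every scaling. In RKO, MRPL51 was at 84.98 and 84.9 FPKM with DMSO and 69.4, 67.6 and 70.4 with PAA, and its groups did not overlap. It changed by -0.29 ± 0.063 SE (adjusted p = 0.00517) there and by 0.04 ± 0.056 SE in HCT-116. MRPL40 (-0.31), MRPL3 (-0.25), MRPL22 (-0.26), MRPL32 (-0.23), MRPL39 (-0.26), MRPL50 (-0.19) and MRPS28 (-0.31) were also called lower in RKO as deposited. None of these 8 falls stood under every scaling, and under a common total MRPL3 gave 0.03, MRPL32 0.04, MRPL39 0.02 and MRPL50 0.08. Without RKO DMSO replicate 3, the calls of MRPL3 (-0.21), MRPL22 (-0.25) and MRPS28 (-0.21) were lost, and without RKO DMSO replicate 2 those of MRPL22 (-0.27) and MRPL50 (-0.16). By the sum of transcripts the RKO calls of MRPL3, MRPL32 and MRPS28 were lost. MRPS22 was not called by its gene value in RKO (0.08 ± 0.092 SE), and by the sum of transcripts it gave 0.23 with an adjusted p of 0.039.

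The deposited gene value moved with the mix of transcripts as well as with their sum. For the members, the gene value was a median of 0.564 of the sum of transcript values, and 66.2% of values were rebuilt within 2% as transcript FPKM times length summed and divided by merged exon length. In 14 members the largest group SD exceeded 0.3 on the log2 scale, against a median of 0.119 over the members. Among them, MRPS16 was called in HCT-116. Its FPKM was 14.3, 15.1 and 12.9 in HCT-116 with DMSO and 32.7, 16.8 and 37.4 with PAA, a change of 0.92 ± 0.28 SE (adjusted p = 0.0225). It was 26.5 and 15.8 in RKO with DMSO and 15.1, 15.3 and 17.5 with PAA (-0.35 ± 0.31 SE). HCT-116 PAA replicate 2 lay near the DMSO libraries and the others well above them.

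The mix of the MRPS16 coding transcripts moved with this spread. The transcript of 2634 bases had 24.2, 7.49 and 26.5 FPKM in the HCT-116 PAA libraries. The transcript of 866 bases had 2.43, 17.1 and 2.87 in the same libraries, so the longer was high where the shorter was low. Their sum with the other transcripts was 24.2, 23.7 and 21.8 with DMSO and 38.6, 31.9 and 42.9 with PAA. The sums did not overlap, and the change was 0.67 with an adjusted p of 0.00134. By the gene value the call was lost without DMSO replicate 1 (0.93), DMSO replicate 3 (0.86), PAA replicate 1 (0.80) or PAA replicate 3 (0.70). MRPS16 also shares exons with DNAJC9 on the same strand.

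Of the 14 members of wide spread, the other one called was MRPS34, given above. The next examples were not called with PAA. MRPL53 was at 2.83, 15.99 and 2.27 FPKM in HCT-116 with PAA, so that 1 library stood apart, and between 2.17 and 4.63 in the other 10. MRPL49 was at 11.04, 10.2 and 35.04 in those libraries, and its transcript of 2019 bases at 6.07, 10.4 and 51.4. For MRPL37, the transcript of 1582 bases was at 64.1, 24.7 and 28.2 FPKM in HCT-116 with DMSO and listed at 0 in all 3 PAA libraries, where that of 1483 bases was at 46.4, 79.5 and 77.2. The gene value of MRPL37 was 46.8, 28.7 and 30.8 with DMSO and 27.5, 46.4 and 45.1 with PAA, and the groups overlapped. MRPL30 was at 22.2 and 19.8 in RKO with DMSO and 6.26, 15.96 and 5.94 with PAA. Its change of -1.21 ± 0.45 SE (adjusted p = 0.0607) was not called, while the sum of transcripts, 35.3 and 34.7 against 14.8, 24.6 and 14.8, gave -0.95 with an adjusted p of 0.00948. By the sum of transcripts, 7 members had another call in HCT-116 and 8 in RKO.

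**Figure D4:**
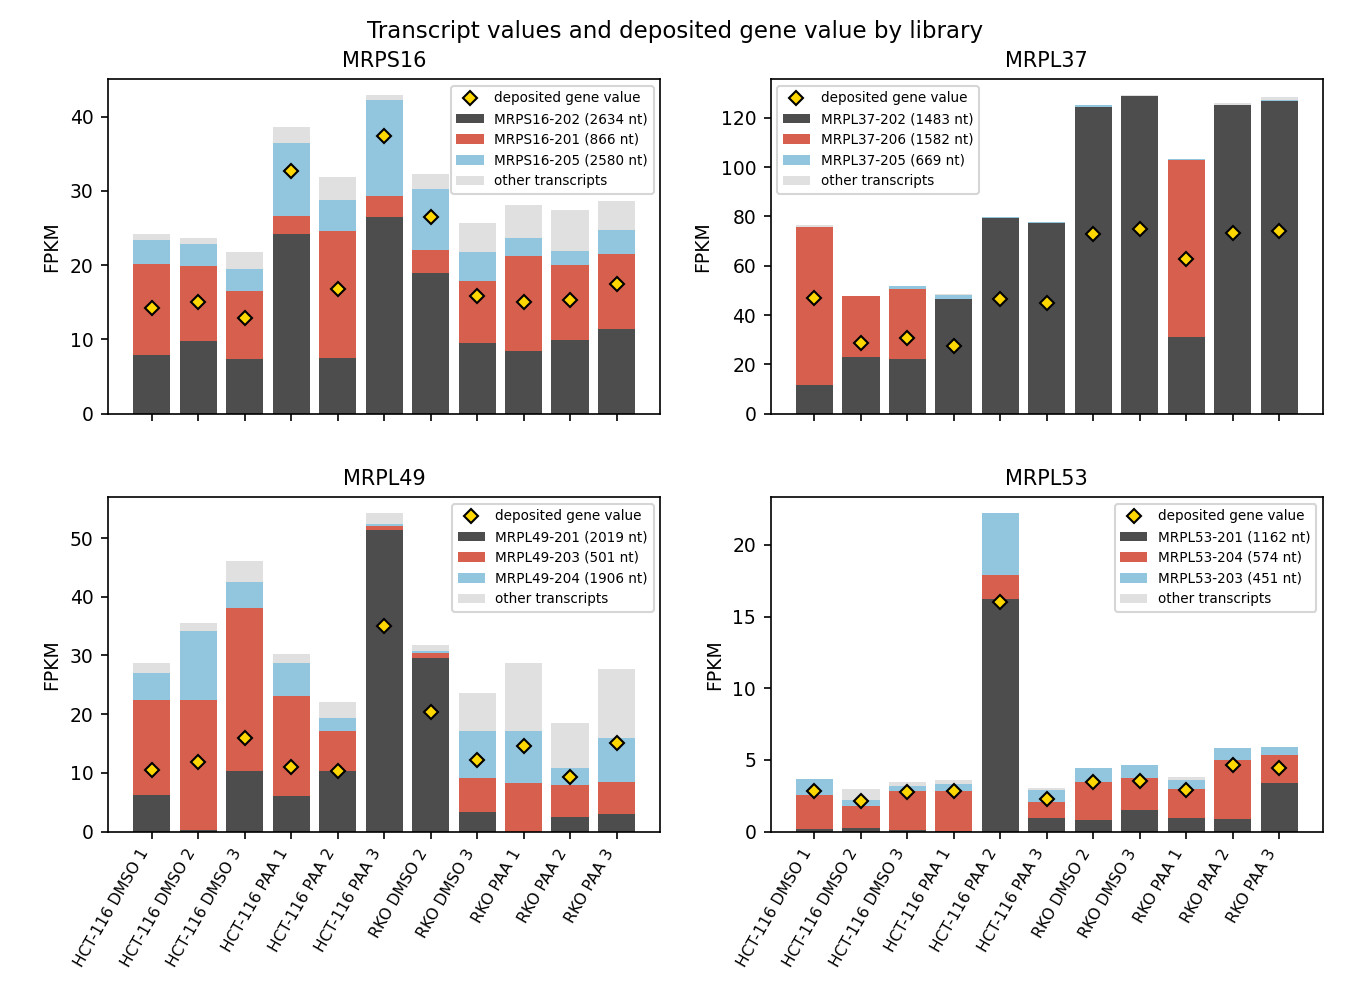
Stacked transcript FPKM (bars, from 0) and the deposited gene value (diamonds) of 4 members in each of the 11 libraries; transcripts are named with their length in bases. The mix of transcripts changes between replicates of 1 group, as in HCT-116 with PAA for MRPS16 and MRPL49, and MRPL53 stands out in HCT-116 PAA replicate 2.

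Most members differed between the lines under vehicle. In RKO with DMSO against HCT-116 with DMSO, 27 members were called higher and 28 lower (70.5%, against 64.1% of all tested genes, 33.4% higher and 30.7% lower). The median member differed by 0.017. Of these calls, 22 and 27 stood under all 5 scalings, a count not taken for all tested genes. MRPL41 was at 122, 114 and 123 FPKM in HCT-116 with DMSO and 307 and 315 in RKO, a difference of 1.37 ± 0.045 SE (adjusted p = 6.61e-09). MRPL12 was at 156, 159 and 168 and 69.6 and 73.7, a difference of -1.15 ± 0.049 SE (adjusted p = 3.92e-08). By the gene value MRPL12 ranked first among the members in HCT-116 with DMSO, ahead of MRPL41. In RKO with DMSO it stood behind MRPL41, MRPL51, MRPS26, MRPS34 and MRPL37.

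Further members higher in RKO were MRPL50 (0.99 ± 0.042 SE), MRPL28 (0.99 ± 0.088 SE), MRPL37 (1.07 ± 0.25 SE) and MRPS2 (1.16 ± 0.41 SE). The call of MRPS2 was lost without HCT-116 DMSO replicate 2 (0.90) or 3 (1.15), or either RKO DMSO library (1.17 and 1.16). Further members lower in RKO were MRPL1, of the stalk that releases transfer RNA (-1.17 ± 0.18 SE), MRPS23 (-1.09 ± 0.049 SE), MRPS33 (-0.999 ± 0.12 SE) and MRPS7 (-0.99 ± 0.056 SE). MRPS33 was at 5.91, 4.89 and 4.47 FPKM in HCT-116 with DMSO and 2.23 and 1.85 in RKO. The DMSO libraries of the lines did not overlap for any of these 10 genes. They were picked for the largest called differences, so this separation adds no support. Over the 11 libraries, the members with the highest mean FPKM were MRPL41 (193), MRPL12 (108), MRPL51 (68.6), MRPS26 (57.3) and MRPL37 (53.0). The lowest were MRPL42 (2.47), MRPL46 (2.82), MRPS33 (3.55), MRPL48 (3.94) and MRPS11 (3.99). These ranks hold for the deposited gene value, which was 0.169 to 1.0 of the sum of transcript values among the members. In HCT-116 with DMSO that sum was 17.8 for MRPL46 and 19.7 for MRPS33, but 3.36 for MRPL53, so the order differs by the sum.

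**Figure D5:**
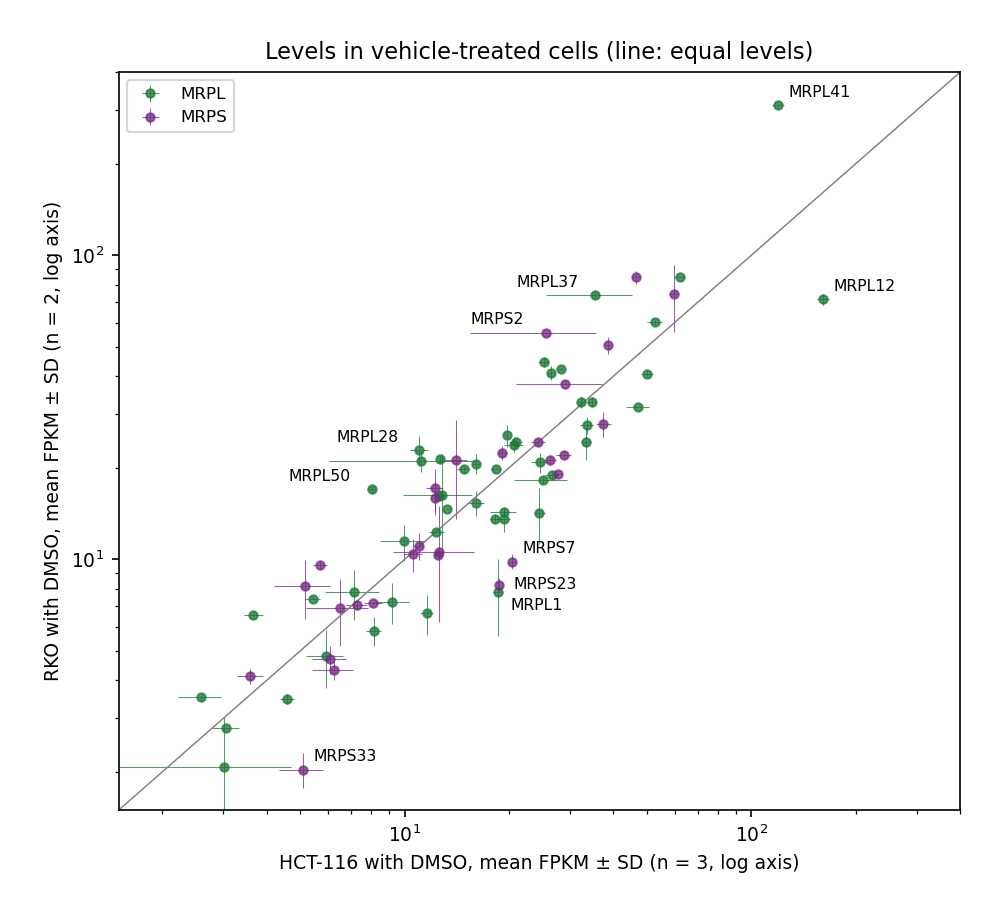
Mean FPKM of each member in HCT-116 with DMSO (horizontal, n = 3) against RKO with DMSO (vertical, n = 2) on log axes, with bars of 1 SD and a line of equal levels. MRPL41 and MRPL12 lie far from the line on opposite sides.

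On some chromosomes all or most of the called members differed between the lines in 1 direction. All 8 members on chromosome 17, MRPL10, MRPL12, MRPL27, MRPL38, MRPL45, MRPL58, MRPS7 and MRPS23, were called lower in RKO with DMSO, with a median of -0.739. The call of MRPL58 was lost without RKO DMSO replicate 2 (-0.46) or 3 (-0.40). Of the 905 tested genes on that chromosome, 45.6% were lower and 21.4% higher, with a median of -0.207. All 3 members on chromosome 9, MRPL41, MRPL50 and MRPS2, were called higher in RKO (median 1.165), where 58.5% of 583 tested genes were higher and 18.2% lower (median 0.404). On chromosome 1, 5 of 8 members were higher and 0 lower, while of all 1401 tested genes there 30.3% were higher and 32.3% lower (median 0.001). On chromosome 6, 5 of 6 members were lower and 1, MRPL14, was higher. Of all 677 tested genes there, 32.3% were lower and 33.4% higher (median 0.006). So the members went with the other genes of chromosomes 17 and 9 and not with those of 1 and 6. These chromosomes were singled out after the values were seen.

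Subunits that carry another symbol moved in both directions with PAA. DAP3, a GTP-binding protein of the small subunit, rose in both lines, from 18.2, 18.1 and 17.4 to 23.7, 22.5 and 24.4 FPKM in HCT-116 and from 15.8 and 17.9 to 21.3, 20.4 and 24.6 in RKO. The changes were 0.38 ± 0.072 SE (adjusted p = 0.0022) and 0.37 ± 0.080 SE (adjusted p = 0.00561), under all 5 scalings. PTCD3, a pentatricopeptide repeat protein of the small subunit, went from 8.70, 8.57 and 8.44 to 6.75, 7.15 and 6.80 and from 9.01 and 8.62 to 6.79, 7.06 and 6.87. The changes were -0.28 ± 0.036 SE (adjusted p = 0.000209) and -0.31 ± 0.040 SE (adjusted p = 0.000304), the latter not called under every scaling. CHCHD1 (-0.23 and -0.23) and GADD45GIP1 (-0.15 and -0.34) were also called lower in both lines, and AURKAIP1 in RKO alone (-0.24), calls that did not stand under every scaling. Of the 5 genes, the counts higher and lower were 1 and 3 in HCT-116 and 1 and 4 in RKO, against the 47.1% and 40% of all tested genes called there.

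Of 27 genes for assembly of the mitochondrial ribosome, the counts higher and lower were 5 and 4 in HCT-116 and 6 and 2 in RKO. That is 33.3% and 29.6% called, under the 47.1% and 40% of all tested genes. NGRN, needed for the large ribosomal RNA, rose in both (0.20 and 0.33), as did the GTPase MTG1 (0.23 and 0.44), whose HCT-116 call did not stand under every scaling. RPUSD4 changed by -0.19 and 0.23 and RCC1L by 0.20 and -0.32, each called in opposite directions in the lines, though not under every scaling. NOA1, a GTPase of small subunit assembly, was at 15.5 and 15.3 FPKM in RKO with DMSO and 25.8, 26.5 and 27.2 with PAA (0.74 ± 0.052 SE, adjusted p = 9.78e-06), and gave 0.01 ± 0.047 SE in HCT-116. Of 15 translation factor genes, the counts were 3 and 3 in HCT-116 and 4 and 2 in RKO, 40% called in both, against the same shares. The initiation factor MTIF2 rose in both (0.27 and 0.32). The elongation factors TUFM (-0.34 and -0.14) and GFM1 (-0.37 and -0.27) fell in both, the RKO falls not under every scaling. OXA1L, the membrane insertase, was called lower in HCT-116 and higher in RKO (-0.33 and 0.30), calls that also did not stand under every scaling.

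The ribosomal RNAs of the same particle were higher in RKO with PAA. MT-RNR2, the large ribosomal RNA, was at 6725, 7110.3 and 6063 FPKM in HCT-116 with DMSO and 7369, 7618 and 7564 with PAA. In RKO it was at 1435 and 1648 with DMSO and 2767, 2693 and 2839 with PAA. The change was 0.18 ± 0.064 SE (adjusted p = 0.0424) in HCT-116, not called under every scaling, and 0.85 ± 0.072 SE (adjusted p = 2.87e-05) in RKO. MT-RNR1, the small ribosomal RNA, changed by -0.17 ± 0.17 SE (adjusted p = 0.451) and 0.59 ± 0.19 SE (adjusted p = 0.0309), the latter not called under every scaling. How ribosomal RNA was handled in library preparation is not given in the sources used here. The summed FPKM of the MRPL genes was 1212 ± 23.1 in HCT-116 with DMSO and, over PAA libraries, 1156 ± 9.63 (SD, n = 3 in both). For RKO it was 1402 ± 11.7 with DMSO (SD, n = 2) and 1259 ± 2.17 with PAA (SD, n = 3). Summed MRPS values were 541 ± 21.3 and 531 ± 17.7 in HCT-116 and 609 ± 27.5 and 570.3 ± 44.7 in RKO, so within each line the MRPS groups overlapped.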

How the data were processed

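Total RNA of 11 libraries in 4 groups was sequenced, per the labels. Gene and transcript FPKM values were calculated by the authors and deposited, per the file headers. Trimming with cutadapt 1.9 and quality checks with FastQC are named in the submitters' processing notes. Which quantifier was used, and whether by strand, is not stated in the sources used here. A deposited 0.0001 was read as no signal and set to 0. All 499 member transcripts were found in GENCODE 29, which gave gene types, exons and positions. Depth in reads is unknown from FPKM, so no counting interval is given.

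Values were analysed as log2(FPKM + 1) with limma 3.58.1 in R 4.3.3, with a mean-variance trend, 1 mean per group over all 11 libraries, 7 degrees of freedom among libraries and 1.82 from the prior. The contrasts were PAA against DMSO in each line, the difference of these effects, and RKO against HCT-116 with DMSO. The last shares the DMSO libraries with the others, so they are not compared with it. The script was tested on simulated data. Alternatives were pseudocount, filter, scaling, sum of transcripts, fit and each library left out.

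Members and lists were chosen with earlier results of these data known. Named are up to 8 called rises and falls per line with groups apart, members called in opposite directions, the 8 largest called differences between lines, the 5 called extremes of the line comparison in each direction, the 5 highest and 5 lowest members, members whose name and place differ, the MRPS18 paralogs, listed genes called in both lines, and members whose call differs for the sum of transcripts. Other members called in either line, MRPL46, MRPS11, MRPL30, MRPL37, MRPL49, MRPL53, NOA1 and the chromosomes were added after the values were seen.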

Additional observations from a re-analysis of the deposited data

Results flagged for a closer look

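The following differences of the PAA effect, RKO minus HCT-116 on the log2(FPKM + 1) scale, passed limma's test of the difference at an adjusted p under 0.05. They were positive for MRPL10 (0.307), MRPL45 (0.467), MRPS23 (0.388), MRPS24 (0.604) and MRPS30 (0.424). They were negative for MRPL16 (-0.325), MRPL20 (-0.349), MRPL24 (-0.229), MRPL39 (-0.241), MRPL40 (-0.313), MRPL51 (-0.329), MRPL52 (-0.183), MRPL55 (-0.267), MRPS16 (-1.26) and MRPS26 (-0.225). Under a common total 0 of the negative differences were called, while those of MRPL45, MRPS23, MRPS24 and MRPS30 were called under all 5 scalings. Only 5 of the 15 calls stood with each of the 11 libraries left out in turn. MRPS16 lost its call in 9 of these fits, with values of -1.33 to -0.91. MRPL39 lost it in 10, at -0.25 to -0.20, MRPL52 in 9, at -0.19 to -0.15, and MRPS26 in 7, at -0.23 to -0.18. MRPL40 and MRPL51 lost it without either RKO DMSO library, at -0.32 to -0.31 and at -0.33. MRPL10 (0.28) and MRPL24 (-0.18) lost it without RKO DMSO replicate 3, and MRPL55 (-0.25) and MRPS24 (0.45) without RKO DMSO replicate 2. No sample group held the 4 libraries that a test for a single outlying library needs.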

How the results depend on the processing

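A common total of FPKM gave 6 members lower in HCT-116 in place of 18, 30 higher and 4 lower in RKO in place of 10 and 21, and 10 and 0 positive and negative differences between the lines in place of 5 and 10. In RKO it turned the sign of MRPS18B (0.24), MRPL3 (0.03), MRPL32 (0.04), MRPL39 (0.02), MRPL41 (0.10) and MRPL50 (0.08), and MRPL44 came to 0.00. The sum of transcripts gave 11 members lower in HCT-116, left MRPL32 in RKO with no direction (0.00) and gave -0.2 in place of -0.155 for the RKO fall of the MRPL excess over MRPS. The negative differences between the lines were 6 with no filter, 6 with a common nuclear total and 17 with median-of-ratios factors. The cause of these shifts was not tested.

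With 1 library left out, the members higher in HCT-116 numbered 8 to 10 and those lower 12 to 17. In RKO they were 6 to 11, 6 of them without DMSO replicate 3, and 16 to 22. Between the lines with DMSO they were 21 to 28 and 23 to 28. The positive differences were 4 to 6 and the negative 4 to 9, 6 without HCT-116 DMSO replicate 3 and 4 without either RKO DMSO library. The change of the MRPL excess over MRPS was -0.045 to 0.002 in HCT-116 and -0.175 to -0.143 in RKO. Calls that stood in every such fit were 19 of 28 in HCT-116, 17 of 31 in RKO and 41 of 55 between the lines.

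Whether replicate numbers pair the samples is not stated in the labels. Same-numbered libraries had correlations of deviations of -0.134 to 0.0666 in HCT-116 and -0.142 to -0.0764 in RKO. With 2 or 3 libraries in a group, these values cannot settle it. With a replicate block, 9 members were lower in HCT-116, 5 higher in RKO, 15 higher and 16 lower between the lines, and 2 had negative differences, with 3 residual degrees of freedom in place of 7.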
